A study of Mus musculus with 2 samples.

Results

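The collagen chains are the genes that the array design names Col, a number, a and a number, and 40 of the 27961 gene names on the array followed that pattern. They were read by 78 probes. By structure 11 are fibrillar and 6, the type IV chains, form the basement membrane class. Of the rest 9 are FACIT chains (fibril-associated collagens with interrupted triple helices) and 14 belong to other classes. RNA came from subcutaneous tumours of Panc02, a mouse pancreatic carcinoma line, grown in C57BL/6 mice. One group lived in an enriched environment, housing with more stimulation than ordinary cages, and the other lived in a standard environment. In both groups the mice were 3 weeks old when housing began and carried the tumours for 5 weeks. For each housing the RNA of 6 mice was combined before labelling and hybridised to 1 Cy3 array. Every value therefore describes 2 pools, the spread between mice is unknown, and differences were described without a test.

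A collagen molecule is a triple helix of 3 alpha chains, some built from identical chains and some from partners encoded by different genes. Fibrillar collagens are secreted as procollagens, trimmed at both ends and packed into the fibrils that give connective tissue and tumour stroma their strength. FACIT collagens sit on the surface of such fibrils, and collagen IV forms the sheet-like network of basement membranes. Fibroblasts are a main source of fibrillar chains in carcinoma, while collagen IV is made by epithelial, endothelial and muscle cells among others.

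Levels are on a log2 scale on which 0 is the 75th percentile of that array's intensities, and differences are enriched minus standard environment. A gene counted as measured where a probe was well above background on both arrays, and its value is the mean over such probes. This held for 35 collagens. In the enriched environment pool 14 of these chains were higher by 2-fold or more, 4 were lower by as much and 17 lay within 2-fold. The share that was higher, 40.0%, stood beside 5.76% of the 20261 genes measured on the whole array, and the share that was lower, 11.4%, stood near the array's 9.58%. In either direction 15.3% of the array's genes passed 2-fold. The median difference was 0.43 for the collagens and 0.03 for all genes. Collagen probes held 0.662% of all probe signal in the enriched environment pool and 0.299% in the standard environment pool, and fibrillar probes alone held 0.438% and 0.0997%, so most of that gap lay in the fibrillar class.

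Other tissue signals differed between the same pools. Counts past 2-fold in this and later gene lists stand beside the array's 5.76% higher and 9.58% lower. The skeletal muscle markers took 0.0927% of the summed signal in the enriched environment pool and 3.38% in the standard environment pool, and all 12 measured genes differed downward by 2-fold or more, at a median of -7.91. The carcinoma epithelium markers were well above background on both arrays and at least 2-fold higher in 10 of 10 genes, at a median of 2.10. In RNA from whole tumours, fewer cells of a type and less RNA per cell cannot be told apart. The part of these tissue signals in the collagen differences was not tested.

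The classes differed in their medians. The fibrillar class had the highest, 1.76 over 11 measured chains, with 7 chains past 2-fold upward and 0 downward. The basement membrane class had a median of -0.60 over 5 chains, with 0 past 2-fold upward and 1 downward. That median is the value of Col4a6, from 1 measured probe, and the brighter Col4a1 and Col4a2 lay slightly higher. The FACIT class had a median of -0.32 over 8 chains, with 3 past 2-fold upward and 1 downward, so its members lay far apart. By summed signal neither class was lower. Basement membrane probes held 0.0278% in the enriched and 0.0206% in the standard environment pool, and FACIT probes 0.0087% and 0.0064%. The other classes together had a median of 0.77 over 11 chains, with 4 past 2-fold upward and 2 downward. The FACIT median was 1.36 when only genes in the upper 75% of mean level were kept, which left 5 of its chains.

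**Figure D1:**
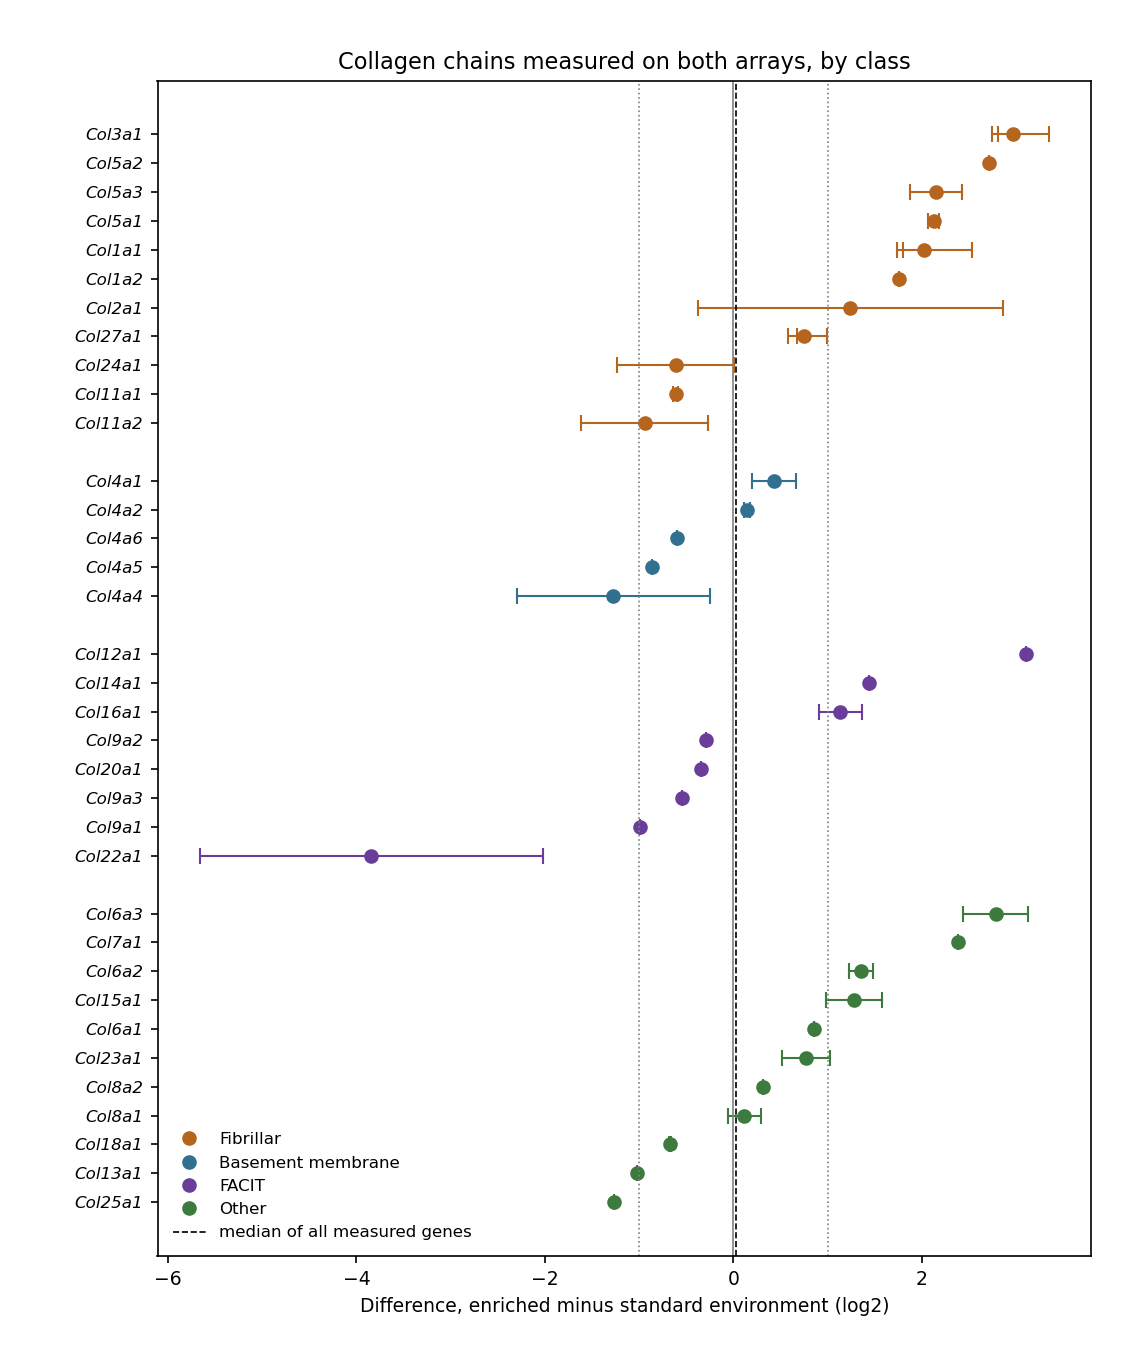
Difference between the enriched and the standard environment pool (log2, x axis) for the 35 collagens measured on both arrays, grouped by class. Circles are gene means, ticks are single probes joined by a line, dotted lines mark 2-fold and the dashed line is the median of all measured genes, 0.03. The chains of types I, III and V lie to the right of the 2-fold line, and Col22a1 at -3.84 lies furthest to the left.

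Among the fibrillar chains, the 6 genes of types I, III and V were all at least 2-fold higher in the enriched environment pool, with differences from 1.76 to 2.96, a grouping made after the values were seen. Type I is the main fibril protein of skin, tendon, bone and tumour stroma. Its gene Col1a1 was at 4.00 in the enriched and 1.97 in the standard environment pool, a difference of 2.02 or 4.06-fold (SD between 3 probes 0.44). Its partner Col1a2 was at 2.33 in the enriched and 0.58 in the standard environment pool, a difference of 1.76 or 3.38-fold, and its 2 probes gave 1.75 and 1.76. The Col1a1 probe that was printed 10 times gave a mean difference of 1.74 with an SD of 0.04 between spots, lowest 1.69 and highest 1.82, so spot noise was small against the difference.

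Col3a1, whose product forms thin fibrils together with type I in compliant tissue and early repair, was at 1.38 in the enriched and -1.58 in the standard environment pool. The difference of 2.96, or 7.80-fold, was the 46th highest among all measured genes, and its 3 probes lay between 2.74 and 3.34. Type V collagen starts and limits the growth of type I fibrils. Col5a2, a chain present in most type V molecules, was at 2.64 in the enriched and -0.07 in the standard environment pool, 6.54-fold apart (difference 2.71, 1 probe). Col5a1 was at 1.11 in the enriched and -1.01 in the standard environment pool (difference 2.12, SD between 2 probes 0.09), and Col5a3 at -0.59 and -2.74 (difference 2.15, SD between 2 probes 0.39). In the GRCm38 annotation Col3a1 and Col5a2 are neighbours on chromosome 1, with 24625 bases between them, and their differences of 2.96 and 2.71 were the highest of the fibrillar class.

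RefSeq's GRCm38.p6 table of gene starts held 32 of the 40 collagens. The 250 bases before the annotated start are shown for Col1a2 and Col3a1, since type I and type III chains are the main components of the fibrils whose chains lay higher together. Capitals mark the motifs searched on both strands, which do not overlap one another here. CCAAT is known as a binding site of NF-Y, GGGCGG is bound by Sp1, and TATAAA is the core promoter element bound by TBP. The only TATAAA of the Col3a1 window begins 117 bases before the annotated start, and whether it acts there was not tested.
Col1a2, chr6:4505368-4505617, plus strand: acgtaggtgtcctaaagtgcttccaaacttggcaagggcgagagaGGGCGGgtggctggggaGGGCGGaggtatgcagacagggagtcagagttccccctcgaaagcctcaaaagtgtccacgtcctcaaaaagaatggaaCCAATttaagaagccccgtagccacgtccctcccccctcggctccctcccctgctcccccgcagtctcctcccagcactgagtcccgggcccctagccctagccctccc
Col3a1, chr1:45311288-45311537, plus strand: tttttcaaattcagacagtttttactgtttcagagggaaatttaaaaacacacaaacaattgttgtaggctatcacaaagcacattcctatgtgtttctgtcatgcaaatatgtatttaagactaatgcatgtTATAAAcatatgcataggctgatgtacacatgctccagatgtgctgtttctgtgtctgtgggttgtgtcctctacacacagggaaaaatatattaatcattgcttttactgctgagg
The 32 matched collagens had 35 windows, and a collagen counted if any of its windows held the motif. These counts are therefore per gene, and the array shares are per window. CCAAT stood in 12 of the 32 matched collagens and in 33.8% of all 32851 windows of this length. GGGCGG stood in 18 collagens and in 32.7% of all windows, and TATAAA in 5 collagens and in 12.4%. Among the 9 matched collagens that were at least 2-fold higher, 4 held CCAAT, 6 held GGGCGG and 1 held TATAAA.

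Of the remaining fibrillar chains, those of types XI and XXIV were lower on average, and Col27a1 was higher by less than 2-fold. Col11a1, a cartilage chain that also occurs in carcinoma stroma, was at -3.60 in the enriched and -2.98 in the standard environment pool (difference -0.61, 2 probes at -0.64 and -0.59). Its partner Col11a2 was at -3.40 and -2.46 (difference -0.94), but its probes lay apart at -0.27 and -1.62. Col24a1, known from developing bone, differed by -0.61 with probes at 0.01 and -1.24, and Col27a1, known from cartilage, by 0.75 with 3 probes from 0.58 to 0.99. None of these 4 chains reached 2-fold.

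Col2a1, the main collagen of cartilage, had no settled direction. Its gene mean was -0.76 in the enriched and -2.0 in the standard environment pool, a difference of 1.24, but its 2 measured probes gave 2.86 and -0.38. On mm7, the build of the array design, the probe at 2.86 spans chr15:97979237-97979296 and the probe at -0.38 spans chr15:97979257-97979316, so 40 of 60 bases overlap. The probe at 2.86 was printed 10 times with an SD of 0.06 between spots. The probe at -0.38 had 1 spot on each array, so its spot error is unknown. Without Col2a1 the fibrillar median was 1.89 over 10 chains. In the cartilage marker list 1 of 5 measured genes was higher and 4 were lower, at a median of -0.54, led by Ucma at -4.50, Matn3 at -1.21 and Sox9 at -0.54. Matn1 and Cnmd were not well above background on either array, and Hapln1 was well above it on the enriched array only.

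**Figure D2:**
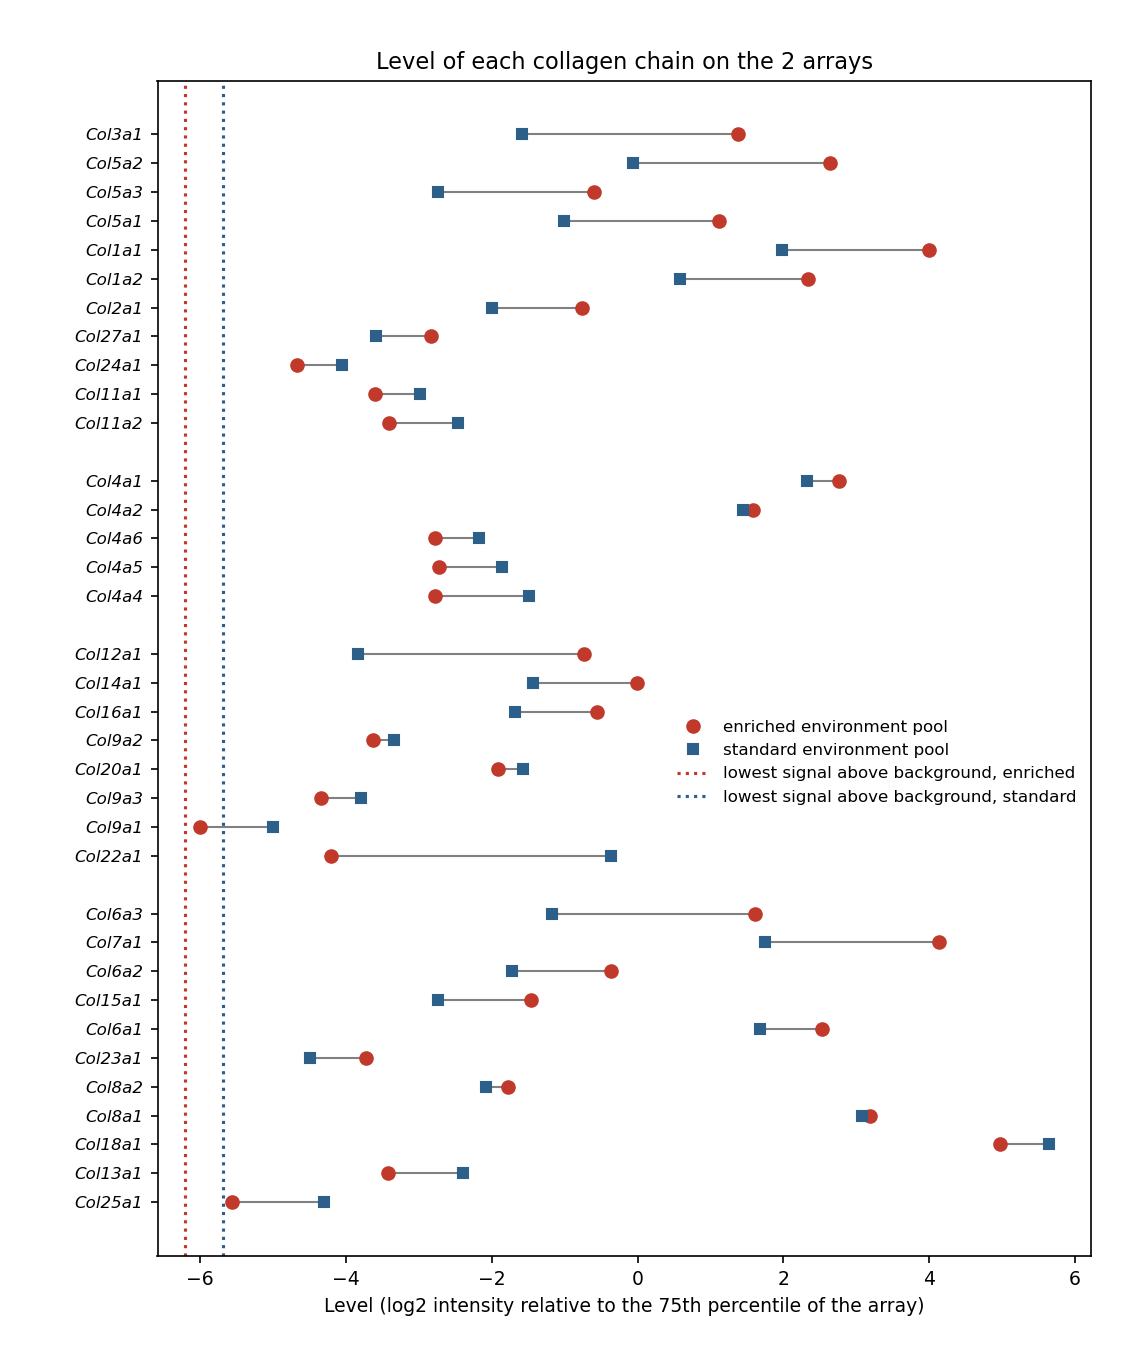
Level of each collagen measured on both arrays (x axis, log2, 0 being the 75th percentile of that array) in the enriched environment pool (circles) and the standard environment pool (squares), in the order of the plot of differences. Dotted lines mark the lowest signal well above background, -6.21 on the enriched and -5.68 on the standard environment array. Col9a1 at -6.0 and -5.0 and Col25a1 at -5.56 and -4.30 lie near these lines, and Col18a1 at 4.97 and 5.64 lies far above them.

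The FACIT chains included higher and lower ones and are described in that order, a grouping made after the values were seen. Col12a1, which bridges type I fibrils and is found in dense connective tissue and reactive stroma, was at -0.73 in the enriched and -3.84 in the standard environment pool. Its difference of 3.11, or 8.61-fold, was the highest of the 35 collagens and the 37th highest of all measured genes. With normexp background correction, whose offset of 50 makes differences of dim probes smaller, it was 2.22. That lay below Col5a2 at 2.61, Col7a1 at 2.37, Col3a1 at 2.30 and Col6a3 at 2.25. The value came from 1 probe on chromosome 9 from 79680905 to 79680964 (mm7). Col14a1, which binds type I fibrils and helps control their diameter, was at -0.01 in the enriched and -1.44 in the standard environment pool (difference 1.43, 1 probe). A second Col14a1 probe was well above background on the enriched array only, at least 1.30-fold brighter there. Col16a1, a minor fibril-associated chain, was at -0.55 and -1.68 (difference 1.13, probes at 0.90 and 1.36).

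The other FACIT chains measured on both arrays were lower in the enriched environment pool. Col22a1, a collagen of the myotendinous junction where muscle fibres meet tendon, was at -4.21 in the enriched and -0.37 in the standard environment pool. Its difference of -3.84, or 14.3-fold, was the largest in either direction among the collagens. The 2 Col22a1 probes gave -5.66 and -2.02 (SD 2.57), so its direction was shared but its size was not settled. The muscle markers lay lower in the same pool at a median of -7.91, led by Ckm at -8.56, Actn2 at -8.52 and Myh2 at -8.47. The erythroid markers, at a median of -5.72 with 5 of 5 measured genes at least 2-fold lower, moved the same way, with Slc4a1 at -7.40, Hbb-b1 at -5.75 and Hba-a1 at -5.72. The part of the muscle and erythroid signals in the Col22a1 difference was not tested.

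The 3 chains of type IX, which coat cartilage fibrils of types II and XI, lay slightly lower without reaching 2-fold. Col9a1 was at -6.0 in the enriched and -5.0 in the standard environment pool (1.99-fold lower, scanner error 0.39 on the log2 scale), close to the lowest measurable signals of -6.21 and -5.68. Col9a2 differed by -0.29 and Col9a3 by -0.55. Col20a1 differed by -0.34. Col19a1, known from muscle and neurons, was detected above background in the standard environment pool alone, at least 2.36-fold brighter there by 1 of its 3 probes, and its other 2 probes were not well above background on either array.

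Of the basement membrane chains 2 were higher and 3 lower in the enriched environment pool. The widely used pair Col4a1 and Col4a2, which share 1 molecule and lie head to head on chromosome 8 with overlapping annotated starts in GRCm38, lay within 2-fold. Col4a1 was at 2.76 in the enriched and 2.32 in the standard environment pool (difference 0.43, SD between 2 probes 0.33), and Col4a2 was at 1.59 and 1.44 (difference 0.15, SD between 2 probes 0.04). The restricted chains were lower. Col4a5 was at -2.72 in the enriched and -1.86 in the standard environment pool (difference -0.86) and its neighbour Col4a6 on the X chromosome at -2.78 and -2.18 (difference -0.60), each from 1 measured probe. Col4a4 differed by -1.28, but its probes gave -0.25 and -2.30, and with the brightest probe only it lay at -0.25 and within 2-fold. Col4a3, which joins Col4a4 and Col4a5 in kidney and lung basement membranes, was detected above background in the standard environment pool alone, at least 2.44-fold brighter there by 1 of 3 probes.

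The cells and proteins that usually accompany collagen IV were mixed. Endothelial markers, whose cells rest on a type IV sheet, were lower in 9 of 9 genes with 2 at least 2-fold lower and a median of -0.70, led by Flt1 at -1.60, Tie1 at -1.05 and Tek at -0.88. Among 10 measured basement membrane partners 7 were higher, 1 of them at least 2-fold, and 1 was at least 2-fold lower, at a median of 0.38. Over the whole array 5.76% of genes were at least 2-fold higher and 9.58% lower. Pxdn, the peroxidase that crosslinks collagen IV, differed by 1.39, and Lama2, the laminin chain of muscle and nerve basement membranes, by -1.59. Agrn differed by 0.79, Lamb1 by 0.71, Nid1 by 0.64 and Lama4 by 0.50, and Lama1 was well above background on the enriched array only.

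Collagen VI, whose chains form beaded filaments between cells and fibrils, was higher in all 3 of its measured chains. Col6a3, the chain with the longest flanking regions, was at 1.60 in the enriched and -1.18 in the standard environment pool, a difference of 2.78 or 6.88-fold (SD between 2 probes 0.49). Another Col6a3 probe was well above background on the enriched array only, at least 2.94-fold brighter there. Col6a2 was at -0.36 in the enriched and -1.72 in the standard environment pool (difference 1.35, SD between 2 probes 0.18), and its neighbour on chromosome 10, Col6a1, at 2.52 and 1.67 (difference 0.85, 1 probe). The 3 chains assemble together, yet their differences ran from 0.85 to 2.78, a wider span than that of the 2 type I partners.

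Col7a1, which forms the anchoring fibrils that fasten epithelium to the tissue below, was at 4.13 in the enriched and 1.74 in the standard environment pool, a difference of 2.39 or 5.22-fold from 1 probe. The carcinoma epithelium markers were higher by a median of 2.10, led by Tff2 at 2.48, Muc4 at 2.43 and Msln at 2.43. Among 6 measured keratinocyte markers 4 were higher, 2 of them at least 2-fold, at a median of 0.16, led by Krt14 at 3.15, Krt5 at 2.01 and Trp63 at -0.63. Ivl was well above background on the enriched array only and Dsg3 on the standard array only. The part of these epithelial signals in the Col7a1 difference was not tested.

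The transmembrane collagens were dim. Col13a1, found at the neuromuscular junction and other adhesion sites, was at -3.42 in the enriched and -2.39 in the standard environment pool, a difference of -1.03 from 1 of 2 probes. Col25a1, known from neurons and developing muscle, was at -5.56 and -4.30 (difference -1.26, 1 of 3 probes), near the lowest measurable signals. Col23a1 differed by 0.77 with 2 probes at 0.51 and 1.02. Col17a1, the hemidesmosome collagen of basal epithelium, had no value, since 1 probe was above background only on the enriched array, at least 1.33-fold brighter, and the other only on the standard array, at least 4.24-fold brighter. Markers of Schwann cells and nerve had a median of -0.31, with 2 of 7 higher and 5 lower, among them Sox10 at -0.83 and Prx at -0.45.

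The multiplexins, collagens with sugar chains that also occur at basement membranes but are counted here among the other classes, lay on opposite sides of 0. Col15a1 was at -1.46 in the enriched and -2.74 in the standard environment pool (difference 1.28, SD between 2 probes 0.42). Col18a1, whose end fragment is the angiogenesis inhibitor endostatin, was at 4.97 in the enriched and 5.64 in the standard environment pool (difference -0.67, SD between 2 probes 0.02). The short-chain collagens of type VIII, made by vessel walls and other remodelling tissue, were nearly level, Col8a1 at 3.19 in the enriched and 3.08 in the standard environment pool (difference 0.11) and Col8a2 at -1.77 and -2.08 (difference 0.31). Col10a1, the collagen of hypertrophic cartilage, was not well above background on either array. Col28a1 was well above background on the enriched array only, and its signal did not exceed the limit on the standard array. In the bone marker list 6 of 6 measured genes were lower, 2 of them at least 2-fold, at a median of -0.68, led by Bglap at -6.82, Alpl at -4.02 and Mepe at -0.83. Of the bone markers read on 1 array, Sp7 was well above background on the enriched array, and Ibsp and Dmp1 on the standard array.

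Several collagens were read by probes far apart along the gene. For 16 collagens the most upstream probe and the probe nearest the 3′ end lay at least 1 kb apart on mm7. The upstream difference minus the 3′ difference had a median of 0.32 in these collagens, from -0.55 for Col5a3 to 3.63 for Col22a1, and of 0.12 over 5313 genes of the array. Col1a1 gave 2.53 upstream and 1.74 near the 3′ end, Col3a1 3.34 and 2.81, and Col6a3 3.13 and 2.44, all on the same side of 2-fold. For Col4a4, Col11a2 and Col24a1 the upstream probe lay within 2-fold and the 3′ probe beyond it, with -0.25 and -2.30, -0.27 and -1.62, and 0.01 and -1.24. Col16a1 with 0.90 and 1.36 did the same on the higher side, and Col23a1 with 1.02 and 0.51 was past 2-fold at the upstream probe alone. Of the 21 collagens with several measured probes, 18 had all probes on 1 side of 0, and Col2a1, Col8a1 and Col24a1 did not.

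**Figure D3:**
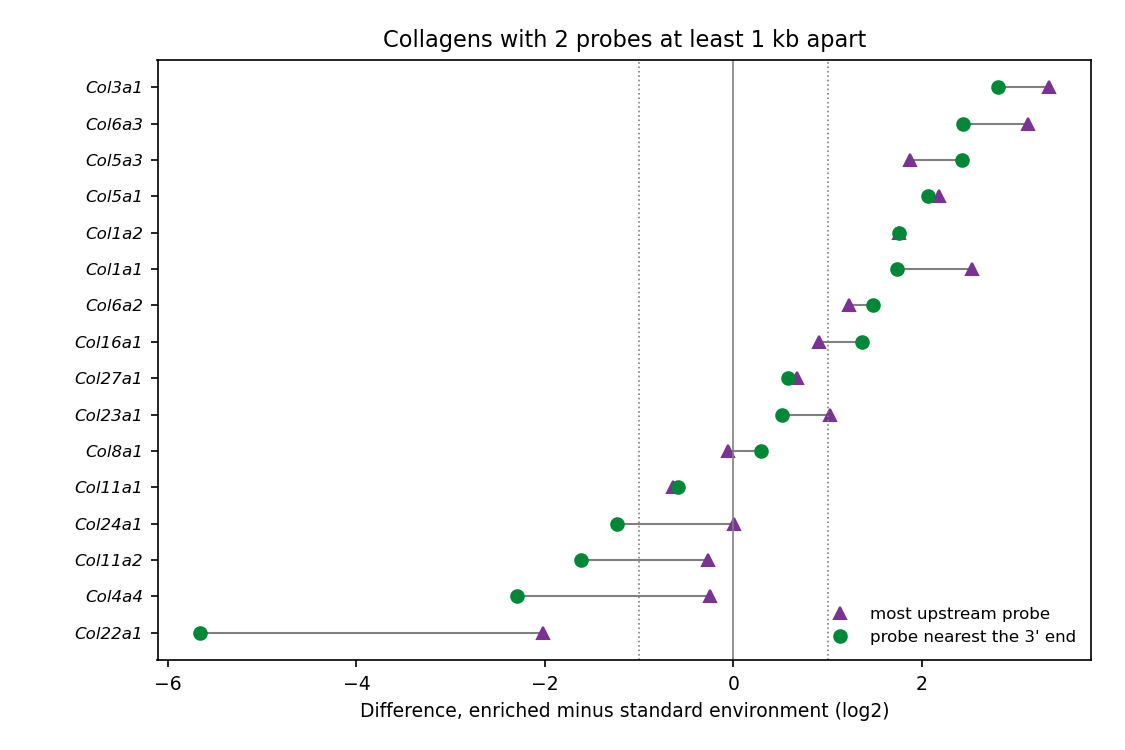
Difference between the enriched and the standard environment pool (log2, x axis) read by the most upstream probe (triangles) and by the probe nearest the 3′ end (circles) for 16 collagens with probes at least 1 kb apart. Col1a2 at 1.75 and 1.76 shows no gap, and Col22a1 at -2.02 and -5.66 the widest.

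The enzymes that modify and fold collagen chains differed less than the fibrillar chains. Of 17 measured genes 12 were higher and 5 lower, with 2 past 2-fold upward and 1 downward, at a median of 0.22. The shares over all genes were 5.76% upward and 9.58% downward. Fkbp10, a chaperone that acts with lysyl hydroxylase, differed by 1.35, and P4ha2, a prolyl hydroxylase subunit, by 1.01, while P4ha1 differed by -0.53. P3h3 differed by 0.99 and the collagen galactosyltransferase Colgalt1 by 0.74. Colgalt2 was at -5.49 in the enriched and -3.74 in the standard environment pool (difference -1.75), and P4ha3 was well above background on the enriched array only. Among the 4 measured genes for procollagen cleavage, Adamts2, which removes the amino end, differed by 1.23 (SD between 4 probes 1.03) and was the only one past 2-fold, and the enhancer Pcolce2 differed by 0.98, Pcolce by 0.16 and the carboxyl-end protease Bmp1 by -0.08. The median of these 4 genes was 0.57, and Tll1, Tll2 and Adamts3 were not well above background on either array.

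Among the lysyl oxidases, which crosslink finished fibrils, Loxl2 had the largest difference. Loxl2, which also acts on collagen IV, was at 0.93 in the enriched and -1.72 in the standard environment pool, a difference of 2.65 with an SD of 0.01 between 2 probes. Loxl4 differed by 1.08, Lox by 0.22, Loxl3 by -0.09 and Loxl1 by -0.03, so that 2 of 5 were at least 2-fold higher, at a median of 0.22.

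The proteins that decorate or organise fibrils split. Of 12 measured fibril partners 4 passed 2-fold upward and 2 downward, at a median of 0.39. Tnc, the tenascin of wounds and tumour stroma, differed by 3.55, the matricellular Postn by 2.95, the microfibril gene Fbn1 by 2.46 and Thbs2 by 1.77. Fmod, a proteoglycan of tendon fibrils, was at -1.79 in the enriched and 1.31 in the standard environment pool, a difference of -3.11, and Dcn, which limits fibril thickness, differed by -1.03.

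Collagen receptors had a median of -0.38, with 3 of 10 genes higher and 7 lower, and 1 past 2-fold in each direction. These counts stood near the array's shares of 5.76% higher and 9.58% lower. The integrin subunit Itga2 differed by 1.67, and the platelet receptor Gp6 was at -5.62 in the enriched and -2.90 in the standard environment pool (difference -2.72). Itgb1 differed by -0.67 (SD between 3 probes 1.33), Oscar by -0.58, the discoidin receptor gene Ddr2 by -0.54 and Itga10 by -0.50. Genes of collagen breakdown had a median of 0.85, with 6 of 10 higher, 3 of them at least 2-fold, and 1 at least 2-fold lower. Timp1, an inhibitor of the metalloproteinases, differed by 1.64, the cathepsin gene Ctsk by 1.08, the uptake receptor gene Mrc2 by 1.02, the collagenase gene Mmp13 by 0.97 and Mmp14 by 0.93. Mmp8, the neutrophil collagenase, differed by -4.25.

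**Figure D4:**
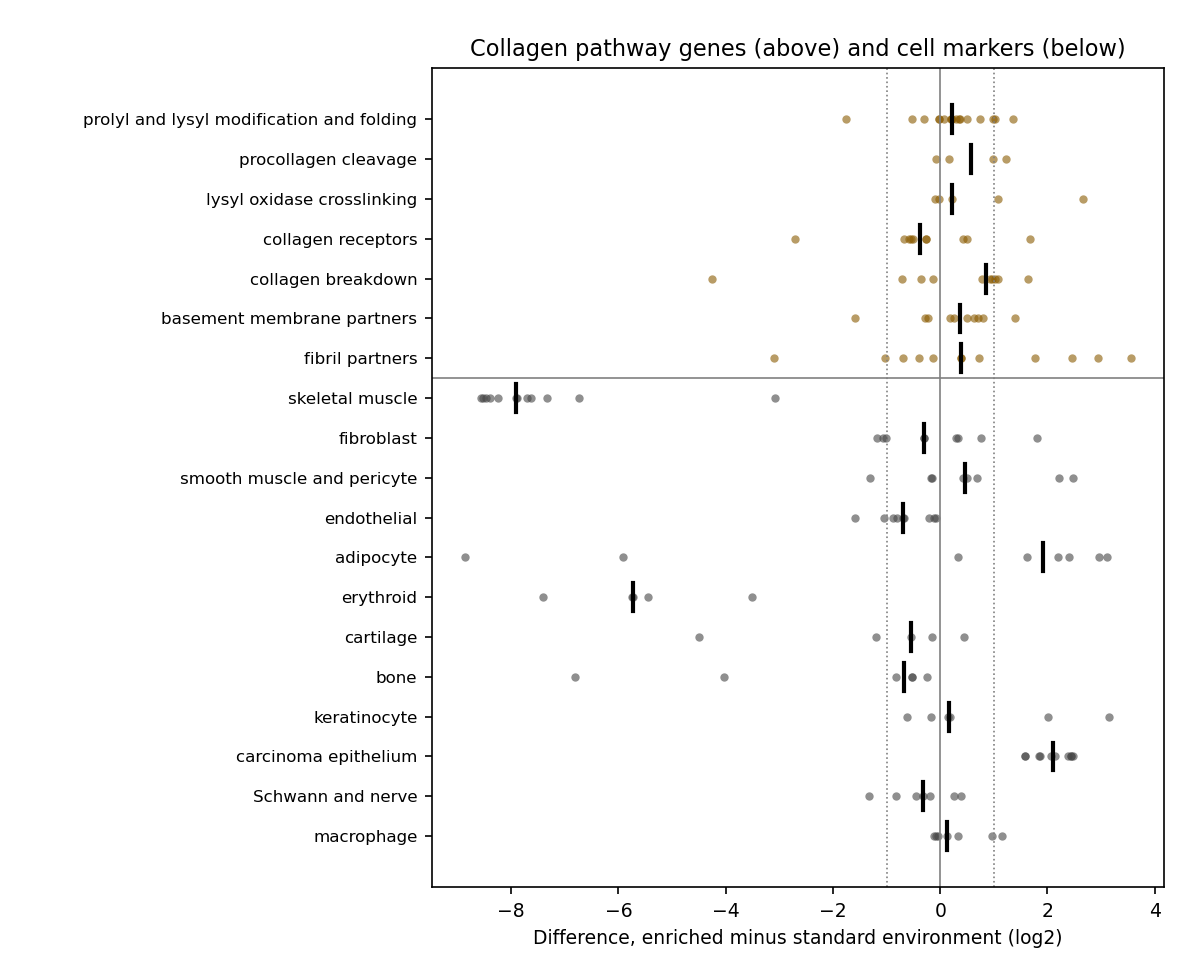
Difference between the enriched and the standard environment pool (log2, x axis) for the genes of 7 collagen pathway lists (above the line) and 12 cell marker lists (below it), 1 dot per measured gene with the list median as a bar. The muscle and erythroid bars at -7.91 and -5.72 lie furthest left, and the carcinoma epithelium and adipocyte bars at 2.10 and 1.92 furthest right.

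General fibroblast markers did not follow the fibrillar chains. Of 9 measured genes 4 were higher and 5 lower, with 1 past 2-fold upward and 3 downward, at a median of -0.30, beside 1.76 for the fibrillar collagens. They took 0.205% of the summed signal in the enriched and 0.164% in the standard environment pool, and Tcf21 was not well above background on either array. Thy1 differed by 1.80, the receptor gene Pdgfrb by -1.18 and Pi16 by -1.07. Markers of smooth muscle and pericytes had a median of 0.46 over 8 genes, with Cnn1 at 2.48 and Tagln at 2.21 higher and the pericyte gene Rgs5 at -1.31. Adipocyte markers had a median of 1.92 over 8 genes, 5 of them at least 2-fold higher, led by Ucp1 at -8.86 and Cidea at -5.91, which mark brown fat, and by Cfd at 3.11. Macrophage markers had a median of 0.13 over 7 genes, with Cd14 at 1.16, Mrc1 at 0.97 and Adgre1 at 0.34. The part of these cell types in the collagen differences was not tested.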

How the data were processed

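The authors hybridised Cy3-labelled cRNA of 2 RNA pools to Agilent mouse arrays on 1 slide, per the file headers. The submitters' processing notes name Agilent Feature Extraction 10.7.1.1. Its deposited output gives each spot a linear intensity from which, per the file headers, background and spatial trends had been removed, a step that changes dim spots most. A second deposited table holds log2 values for 30319 probes (column medians 8.56 enriched, 8.54 standard); they followed log2 of the scanner intensity (r = 1.00 in both), but scaling and centring are unstated, and it served as an alternative only.

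Each processed intensity was divided by its array's 75th percentile and put on a log2 scale (984 enriched, 753 standard). Control spots (1639) and outlier spots (70 enriched, 66 standard) were left out, and 30307 of 41161 probes were well above background on both arrays; 0 spots were saturated. A bound ("at least") set the brighter level against the higher of the other array's lowest measurable signal and the probe's own signal there. Without replicates, the error between labellings and between arrays is unknown. The median SD between probes of a gene, which does not measure that error, was 0.18 for all genes and 0.33 for collagens. The scanner's own error model, which does not cover it either, gave the collagen differences a median error of 0.18. Steps ran in Python 3.11.15 with pandas 2.3.3 and limma 3.58.1. On simulated data only the averaging of probes into gene differences and the 2-fold count were tested. Every collagen is accounted for; in pathway lists up to 6 genes and in marker lists up to 3 genes with the largest difference were named, with a few others; 1 marker gene that this rule would name is not reported here. List genes were matched by array name, older name or RefSeq accession. Members, classes and lists were chosen with earlier results of these data known.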

Additional observations from a re-analysis of the deposited data

How the results depend on the processing

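Over 11 alternative processings (10 for the 6 dim collagens that the upper 75% of mean level leaves out), 34 of 35 collagens kept 1 sign, Col8a1 being the exception (-0.06 to 0.27), and 12 of the 18 past 2-fold stayed past it in all: Col1a1, Col1a2, Col3a1, Col5a1, Col5a2, Col5a3, Col6a2, Col6a3, Col7a1, Col12a1 and Col14a1 higher, and Col22a1 lower. Those that did not were Col2a1, Col15a1, Col16a1, Col4a4, Col13a1 and Col25a1. Most settings average the same probes, so a kept sign does not settle direction where probes disagree, as for Col2a1 and Col24a1. With normexp background correction 1 collagen was at least 2-fold lower in place of 4, and the fibrillar median was 1.27 and that of the other classes 0.17. The fibrillar median was 1.96 with quantile normalization and 1.98 in the deposited log2 table. The basement membrane median was -0.84 without a filter on dim probes and -0.25 with the brightest probe or with the upper 75% of mean level, the setting that took the FACIT median to 1.36 on 5 chains. The median of the other classes was 0.21 without the filter and 0.54 with current gene symbols, which add 1 chain. The genes in a class changed only without the filter, with the upper 75% of mean level and with current gene symbols. Why the medians moved was not tested. The median of all genes lay between -0.11 and 0.11 over these settings. By their mean over probes, 7 collagens lay within 2 log2 units of the lowest measurable signal on an array: Col9a1, Col9a3, Col12a1, Col22a1, Col23a1, Col24a1 and Col25a1. Single probes inside the means of other collagens lay as near it. On the standard array these included probes of Col5a3 at -5.35, Col3a1 at -4.73 and Col1a2 at -4.48. With normexp background correction Col5a3 differed by 1.44, Col3a1 by 2.30 and Col1a2 by 1.27. No paired analysis was possible because each housing had 1 pool.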

Other observations

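4 probes of collagen chains carry other names in the array design and were outside the 40 genes. Emid2, now named Col26a1, was at -4.11 in the enriched and -4.38 in the standard environment pool, a difference of 0.27. The probe of E330026B02Rik, now Col6a6, was not well above background on either array. A cDNA described in the file as type XII alpha 1 was well above background on the enriched array only, at -5.48, close to the lowest measurable signal on the standard array, -5.68. A cDNA described as type XI alpha 1 was not well above background on either array.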
